A study of Homo sapiens with 6 samples.

Results

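The 100 brightest microRNA loci were examined in Hs578T cells, a line established from a human breast carcinoma and of mesenchymal appearance. Each member is a microRNA gene, and it was chosen by its symbol in the array's probe annotation and by its mean log2 signal over all 6 arrays, with the brightest probe set standing for a gene. The rule kept 100 of 1072 microRNA loci, which are themselves part of 14884 named genes. Because the mean signal chose the members, their levels are given as a description. The difference between the groups was not used by the rule. The siControl group (n = 3 arrays) was transfected with a non-targeting siRNA and the siCSRP2 group (n = 3 arrays) with an siRNA against CSRP2, both by Lipofectamine 2000, and the growth medium held 10% serum and insulin at 0.01 mg/ml. RNA was taken 48 h after the transfected cells were moved to 24-well plates, which was itself 24 h after transfection. CSRP2 is an actin-bundling protein with LIM domains, and the comparison asks which transcripts differ after its siRNA. All values come from 1 cell line and 1 siRNA label.

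MicroRNAs are made from long primary transcripts. The Microprocessor complex of DROSHA and DGCR8 cuts out a hairpin, XPO5 exports it, DICER1 cuts it to a short duplex, and an Argonaute protein carries 1 strand, the mature microRNA, to target messenger RNAs that pair with its seed. Many microRNA genes lie inside longer host genes or in clusters that share a primary transcript. In breast cancer cells miR-21 is known as an abundant growth-promoting microRNA, miR-210 as a target of the hypoxia response, and the let-7 family as a brake on growth and stem cell genes. A whole-transcript array reads RNA that holds the hairpin region, and the labelled extraction kit keeps mainly long RNA, so the signal of a microRNA locus is not a measure of the mature microRNA.

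Sequences of mature microRNAs were found in RefSeq (GRCh38.p14) for 87 of the 100 loci and hairpins for 76. The mature products of 9 of the loci that passed the test below, and of MIR21, are shown 5′ to 3′ to identify what each locus encodes, with the seed (bases 2 to 8) in capitals.
hsa-miR-3689f: uGUGAUAUcgugcuuccuggga
hsa-miR-548al: aACGGCAAugacuuuuguacca
hsa-miR-4716-3p: aAGGGGGAaggaaacauggaga
hsa-miR-4716-5p: uCCAUGUUuccuucccccuucu
hsa-miR-4786-3p: uGAAGCCAgcucuggucugggc
hsa-miR-4786-5p: uGAGACCAggacuggaugcacc
hsa-miR-4481: gGAGUGGGcuggugguu
hsa-miR-941: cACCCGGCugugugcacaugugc
hsa-miR-5047: uUGCAGCUgcgguuguaaggu
hsa-miR-3671: aUCAAAUAaggacuagucugca
hsa-miR-4737: aUGCGAGGaugcugacagug
hsa-miR-21-5p: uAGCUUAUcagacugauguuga

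The hairpins of the brightest locus, of the brightest locus that fell and of MIR21 are shown next to identify the loci, with the mature arms in capitals. Which bases of a locus each probe set reads was not analysed here. MIR574 lies at chr4:38868032-38868127 on the plus strand, inside the span of FAM114A1. MIR4737 lies at chr17:60043025-60043105 on the minus strand, inside the span of HEATR6, whose strand was not in the tables used. MIR21 lies at chr17:59841266-59841337 on the plus strand, inside the span of VMP1 on the same strand.
MIR574: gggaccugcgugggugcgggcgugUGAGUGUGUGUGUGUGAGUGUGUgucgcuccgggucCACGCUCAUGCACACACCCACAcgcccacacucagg
MIR4737: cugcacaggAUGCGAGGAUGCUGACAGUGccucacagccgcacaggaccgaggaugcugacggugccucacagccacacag
MIR21: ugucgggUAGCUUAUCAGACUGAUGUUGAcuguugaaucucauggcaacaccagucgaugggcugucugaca
The MIR574 hairpin is 96 bases long and 65.6% G and C, and its 5p arm is rich in UG repeats.

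The targeted gene did not separate the groups. CSRP2 measured 3.69, 4.01 and 4.35 (log2 signal) on siControl 1 to 3 and 3.25, 3.76 and 4.26 on siCSRP2 1 to 3, so the groups overlapped. The difference was -0.26 (SE 0.26, limma, adjusted p = 0.583, and 0.188 with the replicate block, a fit that takes arrays of equal replicate number as pairs), with CSRP2 lower on the siCSRP2 array in each of the 3 pairs of equal replicate number. By an exact permutation test of 3 against 3, which cannot go below 0.1, the two-sided p was 0.5. Directions below are therefore those between arrays labelled siCSRP2 and siControl. Pairs of arrays correlated at r = 0.916 to 0.988 across genes, and siControl 3 stood between the groups (-2.05 on a first component with 63.2% of the variance, against -31.5 and -31.2 for the other controls and 14.01 to 30.7 for siCSRP2). The mesenchymal markers VIM, AXL, FN1 and SNAI2 had means above the 95th percentile of genes (6.04), and all 4 fell. In the 6 fits that each left out 1 array, VIM passed in 3, AXL in 5, FN1 in 1 and SNAI2 in 2. The 2 other measured markers of that list, ZEB1 (4.68) and TWIST1 (3.38), lay below that percentile and did not pass the test. Of 11 measured epithelial and luminal markers 0 passed, and their median level was 2.75, but KRT18 (7.74) was also above the 95th percentile. KRT18 had a difference of -0.74 with the groups apart (limma, adjusted p = 0.0635, and 0.00746 with the replicate block), beside -0.82 for VIM. The labels do not say whether the 3 arrays of a group came from separate cultures, so the spread behind every p-value may be technical, and the number of arrays limits the precision throughout.

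The selected loci spanned a wide range of signal, and the range was steep at the top. Means over the 6 arrays ran from 3.55 to 8.19 with a median of 4.01, against a median of 2.56 over all microRNA loci and of 2.99 over all named genes. Of the 100, 9 lay above the 95th percentile of gene means (6.04), 52 above the 75th percentile (3.98), and 49 had a mean under 4. Probe sets differ in how well they hybridise, so these positions describe signal and not amounts of RNA. The last loci inside the limit were MIR518C (3.56), MIR3944 (3.56) and MIR425 (3.55), and the first outside it were MIR606 (3.54), MIR4307 (3.53) and MIR1185-2 (3.53), so the limit falls in a continuous slope.

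**Figure D1:**
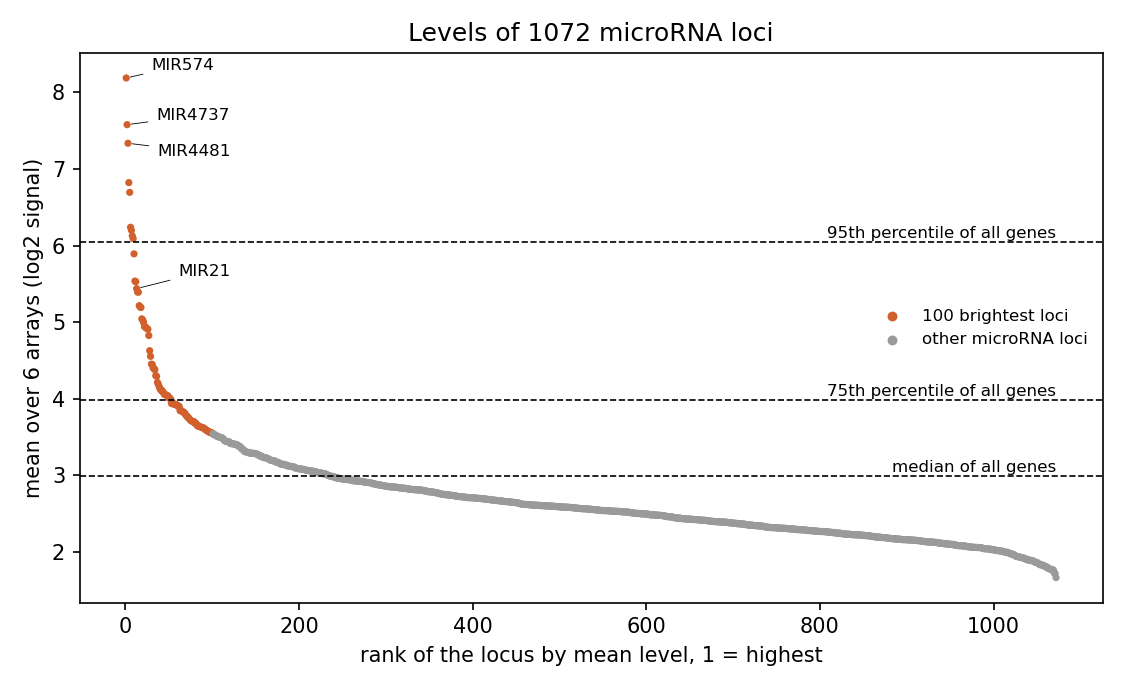
Mean log2 signal over 6 arrays (y axis) of each of the 1072 microRNA loci by rank (x axis), with the 100 brightest in orange, the others in grey and dashed lines at the median, 75th and 95th percentile of all named genes. The curve falls steeply from 8.19 at MIR574 and passes the limit of the 100 at 3.55 without a step.

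The 12 brightest loci held none of the let-7, miR-17 or miR-200 families, although the miR-17-92 cluster had no measured locus. MIR574 led with a mean of 8.19, and MIR4737 (7.58), MIR4481 (7.34), MIR4442 (6.82) and MIR3143 (6.69) followed. MIR548H2 (6.24), a member of the miR-548 family that derives from a transposable element, MIR4525 (6.20), MIR5047 (6.13), MIR4454 (6.09), MIR365A (5.89), MIR539 (5.54) and MIR3619 (5.53) completed them, and MIR21 (5.44) was the 13th. Among these 12, MIR4481 rose and MIR4737 and MIR5047 fell. MIR574 measured 7.78, 7.71 and 8.20 on siControl and 8.42, 8.25 and 8.77 on siCSRP2 arrays. All siCSRP2 values of MIR574 lay above all siControl values, but siControl 3 came within 0.05 of siCSRP2 2, and the difference of 0.59 (SE 0.18) did not pass (adjusted p = 0.0829), but did with the replicate block (0.00894) or without siControl 3 (0.0136). MIR3143 was apart in the other direction, at 7.30, 6.88 and 6.96 on siControl and 6.80, 5.88 and 6.34 on siCSRP2 arrays (difference -0.71, SE 0.22, adjusted p = 0.0948, and 0.00932 with the replicate block or 0.0362 without siCSRP2 1). MIR365A, which shares a cluster with MIR193B, had a difference of 0.52 with overlapping groups (adjusted p = 0.36, and 0.0318 with the replicate block). MIR4442 (0.16), MIR548H2 (0.43), MIR4525 (0.05), MIR4454 (0.26), MIR539 (0.40) and MIR3619 (0.12) did not pass with or without the block, and the signs of MIR4442, MIR4525, MIR4454 and MIR3619 turned when single arrays were left out.

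In the comparison of siCSRP2 with siControl, 10 of the 100 loci passed an adjusted p of 0.05, of which 7 rose and 3 fell. Of all named genes 7.34% passed, 0.8% by rising and 6.54% by falling. The share of the 100 that passed in either direction (10%) was thus near that of all genes, while the split leaned the other way: 7% of the loci rose and 3% fell. All 100 lay above the median gene in signal. With the dimmest 50% of genes left out and the adjustment redone, 17.3% of the remaining genes passed, 2% higher and 15.3% lower. In that fit MIR21 and MIR3159 passed besides the 10, so these shares do not stand beside 10 of 100 at a like threshold. The split depended on scaling, with 13 rising and 1 falling after quantile normalization (1.41% and 4.47% of all genes) and after cyclic loess (1.32% and 4.62%), and 7 rising and 6 falling after median centring (0.578% and 9.88%). Under the replicate block 27 passed (20 rose and 7 fell, against 15.8% of all genes, 2.67% higher and 13.1% lower), and the 27 held all 10. Groups did not overlap for 31 of the 100 loci, 22 higher and 9 lower on siCSRP2 arrays, against 11.5% and 16.2% of all genes.

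The loci had positive differences more often than genes at large. The difference was above 0 for 74 of the 100, against 53.1% of all genes and 70.6% of the 972 other microRNA loci. The median difference was 0.18, against 0.02 over all genes and 0.08 over the other microRNA loci, and it was 0.31 after quantile normalization or cyclic loess and 0.10 after median centring. Among the brighter 50% of genes the median difference was -0.15. On single arrays the median of the 100 loci relative to the siControl mean was -0.07, -0.08 and 0.14 for siControl 1 to 3 and 0.33, 0.21 and 0.08 for siCSRP2 1 to 3, so siControl 3 lay above siCSRP2 3 and the groups overlapped. The SD over all probe sets was smaller on siCSRP2 arrays (1.29 to 1.32) than on siControl arrays (1.35 to 1.38), and its part in these differences was not tested.

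**Figure D2:**
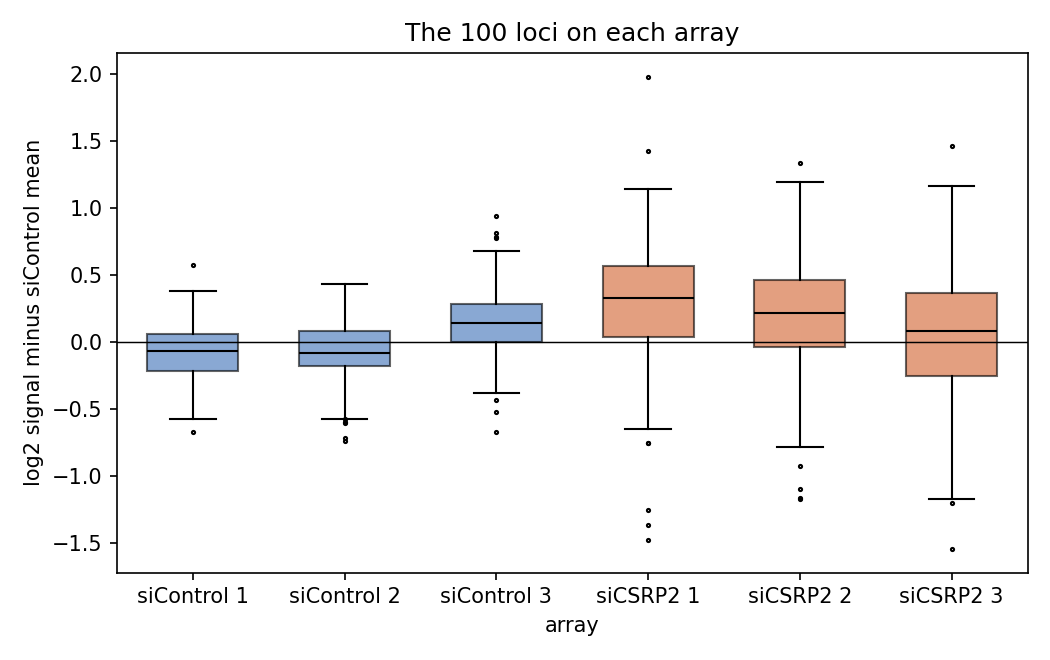
Log2 signal of the 100 loci minus each locus's siControl mean (y axis) on each of the 6 arrays (x axis), as boxes from the 25th to the 75th percentile with the median as a line, whiskers to the last value within 1.5 box heights and points beyond. The medians of siControl 3 (0.14) and siCSRP2 3 (0.08) stand in reverse order to their groups.

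**Figure D3:**
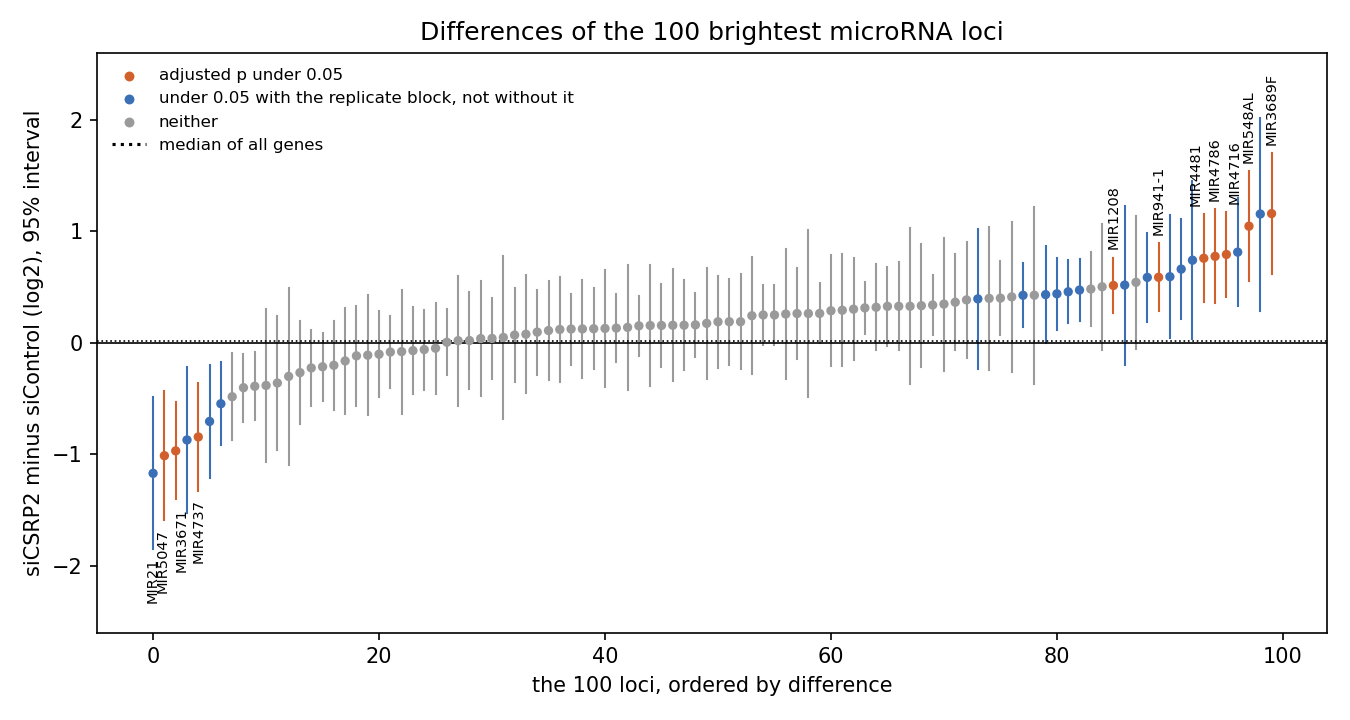
Difference siCSRP2 minus siControl (y axis, log2, with 95% intervals) of the 100 loci in order of difference (x axis), coloured by whether the adjusted p was under 0.05, under 0.05 with the replicate block and not without it, or neither. The differences run from -1.17 at MIR21 to 1.16 at MIR3689F, and 74 lie above 0.

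The 7 loci that rose were of unlike families. MIR3689F, 1 of a group of related genes on chromosome 9, rose most, from 4.23, 5.04 and 5.16 on siControl to 6.23, 5.79 and 5.89 on siCSRP2 arrays (difference 1.16, SE 0.24, adjusted p = 0.0263). The lowest siCSRP2 value stood 0.63 above the highest siControl value. Its other, dimmer probe set gave a difference of 0.58, but there the groups overlapped, with siCSRP2 3 (4.18) below siControl 3 (4.25). MIR548AL, of the transposon-derived miR-548 family, measured 3.19, 3.36 and 4.0 on siControl and 4.42, 4.85 and 4.42 on siCSRP2 arrays (difference 1.05, SE 0.22, adjusted p = 0.0273). Its highest control was siControl 3.

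MIR4716 measured 3.78, 4.10 and 3.83 on siControl and 5.04, 4.56 and 4.49 on siCSRP2 arrays (difference 0.79, SE 0.17, adjusted p = 0.0286). MIR4786, inside the span of NDUFA10, measured 2.99, 3.28 and 3.36 against 3.90, 3.68 and 4.37 (difference 0.78, SE 0.19, adjusted p = 0.0427). The groups did not overlap for either locus. MIR4481, the third brightest, measured 6.71, 7.11 and 7.05 on siControl and 7.55, 8.06 and 7.54 on siCSRP2 arrays (difference 0.76, SE 0.17, adjusted p = 0.0372). It was the brightest of the 7, and its lowest siCSRP2 array was still above all controls.

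MIR941-1 is a copy of a microRNA known only from humans, encoded in a repeat inside the span of DNAJC5. It measured 4.36, 4.46 and 4.78 on siControl and 5.21, 5.09 and 5.06 on siCSRP2 arrays (difference 0.59, SE 0.13, adjusted p = 0.0356). MIR1208 had the tightest controls, at 3.39, 3.42 and 3.46, against 4.04, 3.80 and 3.98 on siCSRP2 arrays (difference 0.51, SE 0.11, adjusted p = 0.0298). The groups did not overlap for either locus, and all 7 were higher in 3 of 3 pairs. All 7 also passed with the replicate block, at adjusted p = 0.00668 to 0.0222. Their adjusted p ran from 0.0541 to 0.158 without siControl 1, from 0.0777 to 0.152 without siControl 2, from 0.0453 to 0.0803 without siCSRP2 1, from 0.062 to 0.108 without siCSRP2 2 and from 0.0591 to 0.109 without siCSRP2 3, so that in these 5 fits only MIR4716 and MIR548AL passed, both without siCSRP2 1.

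The 3 loci that fell were MIR5047, MIR3671 and MIR4737, and each lies inside a gene. MIR5047 measured 6.49, 6.54 and 6.86 on siControl and 5.15, 5.46 and 6.25 on siCSRP2 arrays (difference -1.01, SE 0.25, adjusted p = 0.0487). MIR3671 measured 3.96, 4.29 and 3.92 on siControl and 2.80, 2.96 and 3.50 on siCSRP2 arrays (difference -0.97, SE 0.19, adjusted p = 0.0231). In both, siCSRP2 3 was the siCSRP2 array nearest the controls, and the groups did not overlap.

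MIR4737, the second brightest locus, measured 8.20, 8.23 and 7.57 on siControl and 7.42, 7.22 and 6.83 on siCSRP2 arrays (difference -0.84, SE 0.21, adjusted p = 0.0487). Here siControl 3 was the control nearest the siCSRP2 arrays, 0.14 above the highest of them. The other probe set of MIR3671, read on the same arrays, gave -0.72. After quantile normalization only MIR3671 passed (adjusted p = 0.0418, against 0.0596 for MIR5047 and 0.0736 for MIR4737), and all 3 passed with the replicate block (adjusted p = 0.00317 to 0.00895). None of the 3 passed without siControl 1 (adjusted p = 0.073 to 0.172), siControl 2 (0.111 to 0.195), siCSRP2 1 (0.0513 to 0.0969) or siCSRP2 2 (0.0953 to 0.163), and without siCSRP2 3 MIR4737 did not (0.158).

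MIR21 had the largest difference of the 100 and lay at the threshold. It measured 5.47, 6.11 and 6.49 on siControl and 4.66, 5.42 and 4.48 on siCSRP2 arrays (difference -1.17, SE 0.30, 95% interval -1.85 to -0.49). Its groups did not overlap, but siControl 1 and siCSRP2 2 were 0.05 apart, and MIR21 was lower in 3 of 3 pairs. The adjusted p was 0.0509, and 0.0139 with the replicate block, and it ran from 0.0484 without siControl 3 to 0.187 without siControl 2. MIR21 also passed after median centring (0.0365), with trend and robust (0.0321, a fit that lets the spread follow the signal) and when the lowest 25% or 50% of genes by signal were dropped (0.0393 and 0.0268). It did not pass after quantile normalization (0.0776), after cyclic loess (0.071) or when adjusted over every probe set (0.137). A value just over the threshold in this design is neither a call nor a sign that MIR21 did not change.

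**Figure D4:**
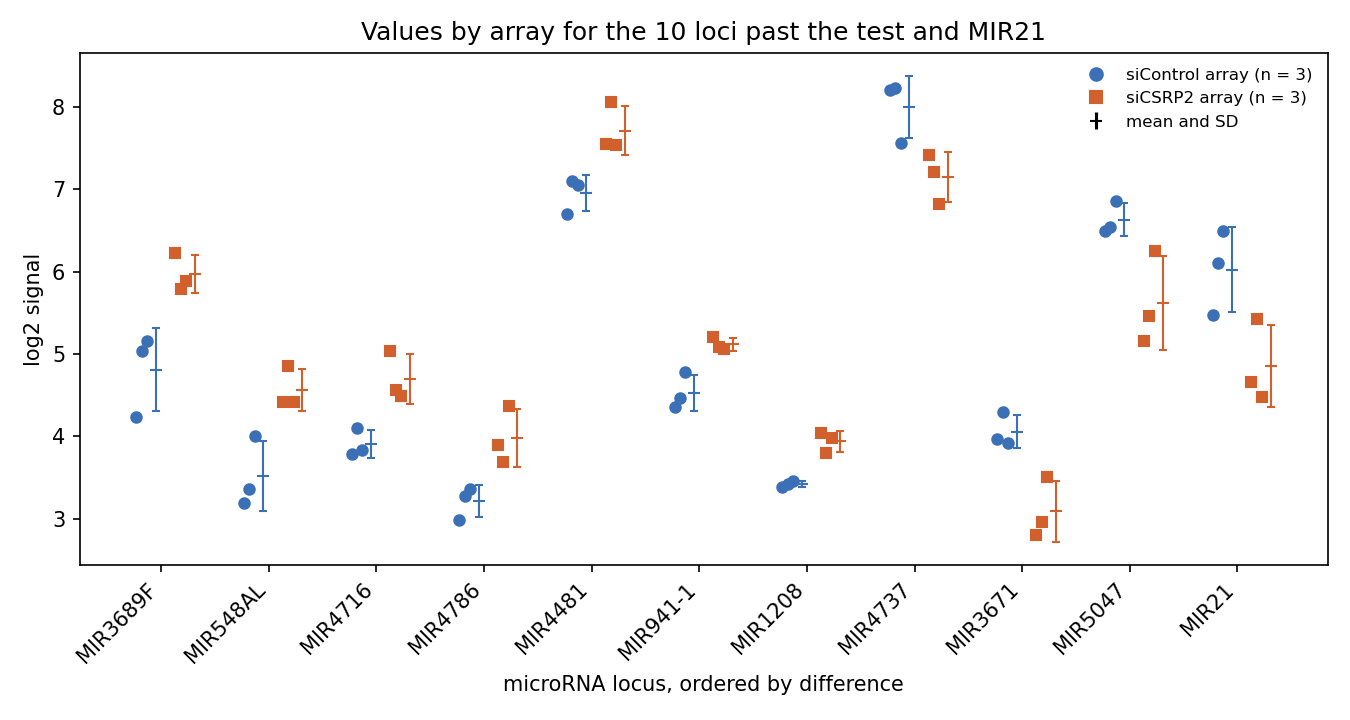
Log2 signal (y axis) on each siControl (blue circles) and siCSRP2 (orange squares) array for the 10 loci past the test and MIR21 (x axis), with the mean and SD of each group (n = 3) beside the points. In each locus the groups do not overlap, and the gap is narrowest at MIR21, between siControl 1 (5.47) and siCSRP2 2 (5.42).

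A further 17 loci, MIR21, MIR574, MIR3143 and MIR365A among them, passed with the replicate block and not without it. MIR4748 had the largest of the positive differences, 1.16 (SE 0.38), but its siCSRP2 arrays spread over 5.45, 4.66 and 3.77 and overlapped the controls (3.83, 3.03 and 3.55). MIR3159 measured 3.85, 4.10 and 3.40 on siControl and 4.87, 4.69 and 4.23 on siCSRP2 arrays (difference 0.81, adjusted p = 0.0554, and 0.00453 with the replicate block). MIR1976 (difference 0.47, adjusted p = 0.0514) and MIR147A (0.66, 0.0804) were likewise higher on every siCSRP2 array than on any control. Of the other loci higher with the block, MIR3935 had a difference of 0.43, MIR663B of 0.43, MIR502 of 0.59, MIR4692 of 0.39, MIR933 of 0.74, MIR3156-2 of 0.46 and MIR3156-3 of 0.44. MIR622 (-0.87) and MIR548AK (-0.55) were lower. The pairing of the arrays by number comes from the data and not from the labels. In 14 other unpaired fits, 12 of the 17 passed at least once, 6 of them (MIR21, MIR3156-2, MIR3159, MIR1976, MIR548AK and MIR3935) in a fit that kept all 6 arrays. MIR574, MIR502, MIR622 and MIR3156-3 passed only without siControl 3, a fit in which 17.6% of all genes passed. MIR3143 passed only without siCSRP2 1 (5.89% of all genes) and MIR4748 only without siCSRP2 3 (1.91%). Across the 14 fits the share of all genes or probe sets that passed ran from 0.611% to 17.6%. The other 5 (MIR365A, MIR147A, MIR933, MIR663B and MIR4692) passed in none of the 14.

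Some of the loci shared a cluster with another of the 100. A microRNA locus within 10 kb, bright or dim, was listed for 33.0% of the loci with a known position, against 25.7% of the other microRNA loci. 17 of the 100 belonged to a cluster on the list of named clusters used here, which is not complete. No measured member of the clusters on that list, bright or dim, passed the test. The 14q32 cluster from miR-379 to miR-656, an imprinted array of microRNA genes, had 5 loci among the 100 of 41 measured. MIR539 measured 5.48, 5.08 and 5.44 on siControl and 5.57, 5.92 and 5.72 on siCSRP2 arrays, the groups apart (difference 0.40, SE 0.15, adjusted p = 0.136), and MIR656 (0.26, adjusted p = 0.22) was also apart. MIR329-1 (0.29), MIR382 (0.02) and MIR329-2 (-0.05) overlapped, and the signs of the last pair turned under other settings. The median difference over the 41 loci was 0.02.

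In the cluster of MIR99B, MIRLET7E and MIR125A on chromosome 19, MIR99B (mean 4.55, difference 0.35) and MIRLET7E (3.93, difference 0.16) were among the 100, and MIR125A, which shares their primary transcript, ranked 658th at 2.42. MIR191 (0.33) and MIR425 (0.02), neighbours on chromosome 3, had means of 3.64 and 3.55, and neither passed the test. MIR23B (-0.23) and MIR24-2 (-0.39) belong to the paired clusters of miR-23, miR-27 and miR-24. MIR24-2 measured 4.24, 4.12 and 4.55 on siControl and 4.01, 3.87 and 3.86 on siCSRP2 arrays, all lower, with an adjusted p of 0.118. Its cluster partner MIR23A, outside the 100, had a difference of 0.47, the other way. MIR23A was dim, with a mean of 2.46, below the lower quartile of all genes (2.58). The median difference over the 3 measured loci of that cluster was 0.28. MIR27B, partner of MIR23B, had a difference of -0.92 (adjusted p = 0.06, and 0.00535 with the replicate block). Differences between loci of 1 cluster were not tested.

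Other members lay in clusters that were not on the list of named clusters. MIR3689A (difference 0.33), MIR3689B (0.17) and MIR3689D1 (0.19) lie within 10 kb of the next copy of MIR3689F on chromosome 9, and only MIR3689F passed the test, with the difference between copies not tested. MIR3689A, MIR3689B and MIR3689F share 1 seed, shown in capitals, while the product listed for MIR3689D1 has another.
hsa-miR-3689a-5p: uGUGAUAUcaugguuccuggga
hsa-miR-3689b-5p: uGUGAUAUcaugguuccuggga
hsa-miR-3689f: uGUGAUAUcgugcuuccuggga
hsa-miR-3689d: gGGAGGUGugaucucacacucg
Where copies are alike, probes for 1 locus may also read RNA of another, which the array values cannot tell apart. MIR502 (mean 4.92, difference 0.59, adjusted p = 0.18) and MIR500A (3.84, difference 0.11) lie in a cluster on the X chromosome with hairpins that were 88.4% identical, and the dimmer MIR500B of that cluster, outside the 100, rose (0.61, adjusted p = 0.0461, and 0.103 to 0.172 without siControl 1, siControl 2, siCSRP2 2 or siCSRP2 3). MIR647 (-0.38) and MIR1914 (0.16), both within UCKL1, differed in sign, although the sign of MIR1914 turned without siCSRP2 1.

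Loci that encode the same or related mature sequences could be set side by side. MIR3156-2 on chromosome 18 and MIR3156-3 on chromosome 21 encode 1 identical 5p product and have hairpins that were 98.7% identical, and their differences were nearly equal (0.46 and 0.44, adjusted p = 0.0624 and 0.1, and 0.0249 and 0.0284 with the replicate block). Their probe sets may read the same RNA. MIR329-1 and MIR329-2, with hairpins 94.0% identical, had differences of 0.29 and -0.05, neither of which passed, and means of 4.92 and 3.62.
hsa-miR-3156-5p: aAAGAUCUggaagugggagaca
The miR-21 seed is shared with MIR590, and the let-7 seed is shared by the 2 let-7 relatives among the 100.
hsa-miR-21-5p: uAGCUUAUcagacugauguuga
hsa-miR-590-5p: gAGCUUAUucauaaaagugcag
hsa-let-7e-5p: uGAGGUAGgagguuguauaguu
hsa-miR-98-5p: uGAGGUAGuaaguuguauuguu
MIR590 had a difference of -0.07 with overlapping groups where MIR21 had -1.17, and its sign turned under quantile normalization and cyclic loess. MIR98, beside MIRLET7F2 on the X chromosome, measured 4.01, 4.12 and 4.13 on siControl and 4.43, 4.42 and 4.16 on siCSRP2 arrays (difference 0.25, adjusted p = 0.239). Its values were apart by 0.03, whereas those of MIRLET7E overlapped.

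The mature products of the 100 loci had a higher median G and C content than those of the other microRNA loci. It was 52.4% (quartiles 42.1% and 63.6%) over 129 mature sequences of 87 loci, against 47.8% (40.9% and 56.5%) over 1314 sequences of 892 other loci. This is a description with no test, and hybridisation of a probe also depends on base composition, whose part was not tested. Over the 884 microRNA loci with a hairpin in the table, the rank correlation of mean signal with hairpin G and C content was -0.05, as a description over loci that share arrays. This correlation runs over loci of all levels and does not show whether the brightest loci differ from the rest. A comparison of the 100 with other loci by hairpin is void, since 76% of the 100 had a hairpin, under the minimum of 80%, whereas 87% had a mature sequence.

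Host genes were compared next, since a microRNA in a host gene can be read from the host's transcript. A gene on the same strand spanned 61.5% of the 91 loci with a known strand, against 55.5% of 907 other microRNA loci. A measured host was at hand for 31 loci in 28 genes. Of these 28 hosts 3 fell and 0 rose (10.7%, against 6.54% of all genes that fell), and 12 of 28 had an unadjusted p under 0.05, against 23.7% of all genes. AOPEP, which holds MIR23B, fell by 0.93 (SE 0.14, adjusted p = 0.0101), DDX5 fell by 0.55 (SE 0.12, adjusted p = 0.0333), and FADS1, a fatty acid desaturase that holds MIR1908, fell by 0.51 (SE 0.12, adjusted p = 0.0449). With the replicate block 6 fell, adding DALRD3, KIF15 and SPACA6, against 13.1% of all genes. Without siControl 1, siControl 2 or siCSRP2 2 none of the hosts passed (adjusted p of AOPEP 0.0525, 0.0558 and 0.0517), without siCSRP2 3 AOPEP alone did (0.0436), and without siControl 3 the count was 8. Without siCSRP2 1 the adjusted p was 0.0685 for DDX5 and 0.0763 for FADS1.

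MIR5047 and its host DDX5 both fell. DDX5, an RNA helicase that assists the Microprocessor, measured 8.73, 8.85 and 8.75 on siControl and 8.05, 8.22 and 8.40 on siCSRP2 arrays, apart like MIR5047 within it, and in both siCSRP2 3 was the highest siCSRP2 array. VMP1, an autophagy gene that spans MIR21, measured 7.98, 7.87 and 8.16 on siControl and 8.22, 7.76 and 8.17 on siCSRP2 arrays. VMP1 thus overlapped between groups (difference 0.04, 95% interval -0.30 to 0.38), where MIR21 had -1.17, and the difference between them was not tested. MIR3671 fell within JAK1, a cytokine receptor kinase whose difference was -0.27 (adjusted p = 0.35). MIR210 and its host MIR210HG had like differences, -0.48 and -0.56, and neither passed (adjusted p = 0.127 and 0.138). MIR210 lay at 4.49, 4.51 and 4.61 on siControl and 3.89, 4.46 and 3.81 on siCSRP2 arrays, with siCSRP2 2 within 0.03 of the controls.

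The signs of locus and host were the same in 15 of 31 pairs, and in 14 the locus was above 0 and the host below it. MIR191 and MIR425 share the host DALRD3, which had a difference of -0.55 (adjusted p = 0.0608, and 0.0244 with the replicate block) while the loci were at 0.33 and 0.02, the latter -0.065 after median centring. MIR99B and MIRLET7E lie in SPACA6 (-0.48), MIR564 in KIF15 (-0.55) and MIR4748 in DNM2 (-0.13, 0.04 after quantile normalization). The rank correlation of locus and host differences over the 31 pairs was 0.20, as a description of pairs that share arrays and in part a host.

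**Figure D5:**
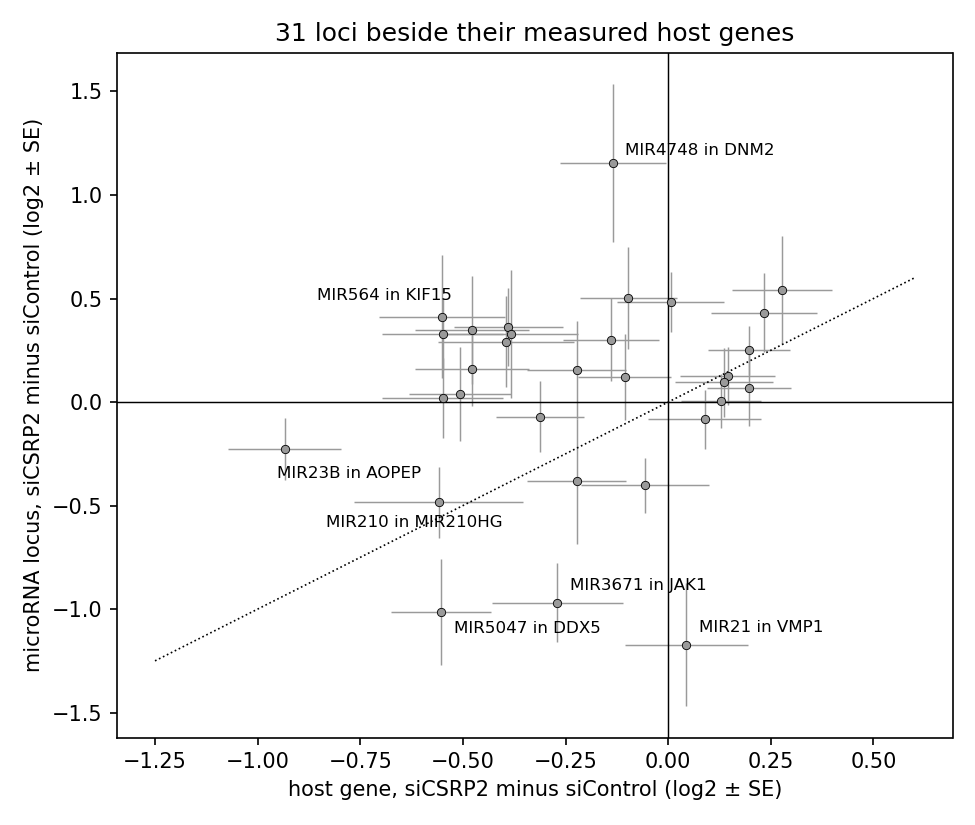
Difference siCSRP2 minus siControl of each microRNA locus (y axis, log2) against that of its measured host gene (x axis, log2) for 31 pairs, with SE bars and a dotted line of equal differences. MIR5047 in DDX5, MIR3671 in JAK1 and MIR210 in MIR210HG lie below 0 on both axes, and MIR21 lies far below VMP1.

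Some loci lie inside a gene on the opposite strand or on a strand not known here. MIR4481, which rose, lies inside the span of CAMK1D, a calcium-dependent kinase, on the opposite strand, and CAMK1D fell by 0.56 (SE 0.11, adjusted p = 0.0241, and 0.0615, 0.116, 0.0868 and 0.0855 without siControl 1, siControl 2, siCSRP2 2 or siCSRP2 3). MIR4716, which also rose, lies opposite GALK2 (-0.25, adjusted p = 0.362). MIR4737, which fell, lies within HEATR6, which measured 5.20, 4.98 and 4.18 on siControl and 4.32, 3.66 and 3.55 on siCSRP2 arrays. HEATR6 had a difference of -0.94 (SE 0.28, adjusted p = 0.0829, and 0.00517 with the replicate block), close to that of MIR4737 at -0.84, and in both siControl 3 was the lowest control.

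The genes that make and use microRNAs mostly did not pass the test. Of 42 listed genes 25 were measured, and 2 fell while 0 rose (8%, against 6.54% of all genes that fell). PARN, a poly(A) exonuclease that trims small RNAs, fell by 1.19 (SE 0.23, adjusted p = 0.023), from 5.31, 5.60 and 5.0 on siControl to 4.56, 4.12 and 3.67 on siCSRP2 arrays. DDX5, given above as a host, was the other. With the replicate block 5 fell, adding XPO5 (-0.43, adjusted p = 0.108, and 0.0383 with the replicate block), HNRNPA1 (-0.46) and XRN2 (-0.40), against 13.1% of all genes. DGCR8 had a difference of -0.28 (adjusted p = 0.326). DROSHA, DICER1 and AGO2 were not analysed here. Without siControl 1, siControl 2, siCSRP2 2 or siCSRP2 3 none of the 25 passed (PARN 0.0866, 0.109, 0.0867 and 0.0706), and without siControl 3 the count was 6.

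The lists of microRNA families were set beside the share of all microRNA loci that were among the 100, which was 9.33%. Of 11 measured let-7 loci 2 were among the 100 (MIRLET7E and MIR98), of 5 of the epithelial miR-200 family 0, and of 9 loci induced by p53 0. For miR-17 and its related clusters 15 loci were listed and 9 measured, of which 0 were among the 100. The 6 listed loci of the miR-17-92 cluster itself were not measured, so nothing is known of their signal here. Of 7 loci linked to the actin-responsive factor SRF only MIR21 was, and of 16 loci linked to mesenchymal or invasive breast cancer cells MIR21 and MIR9-1 were. No locus of these lists passed the test. MIR9-1 measured 3.90, 3.60 and 3.54 on siControl and 3.96, 3.76 and 2.98 on siCSRP2 arrays, and its difference of -0.11 became 0.18 without siCSRP2 3. Of 18 measured host transcripts of microRNAs, MIR31HG was the only one to pass (5.56%, against 6.54% of all genes that fell), and it fell by 1.18 (adjusted p = 0.00926).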

How the data were processed

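Values are the authors' deposited log2 signals of Affymetrix HuGene 2.0 arrays, 1 per probe set, and the log base was inferred from their range. Per the submitters' processing notes Partek was used, without version or role. For background correction, normalization and build the sources used here give nothing. No detection calls were used, so dim loci have no marked floor. Of 53617 probe sets 16098 had 1 gene symbol in the platform table, 0 had several and 37519 had none. The brightest probe set stood for each of 14884 genes. The siCSRP2 and siControl arrays were tested by limma 3.58.1 under R 4.3.3 (lmFit, eBayes, group only, two-sided), with Benjamini-Hochberg adjustment over all 14884 genes at 0.05. On simulated data 149 of 200 genes changed by 1 log2 unit were recovered with 10 false calls. The simulated noise was independent between genes and arrays, so these counts do not give the error rate on real arrays that share deviations. Deviations of same-numbered arrays correlated at 0.30, 0.19 and 0.32, and all other pairs at -0.26 to 0.05, so pairing by number was inferred from the data. The members and gene lists were chosen with earlier results of these data known. Named are the 12 brightest loci, loci past the test, loci around the limit, loci of clusters with at least 2 members, listed families and hosts. The loci passing with the block and not without it, partner loci in a cluster, loci sharing a seed or hairpin, MIR210, MIR24-2, MIR564, HEATR6, CAMK1D, GALK2 and MIR31HG were chosen after their values were seen. Sequences and positions of microRNAs are from RefSeq (GRCh38.p14). A host is a gene whose RefSeq span holds the locus on the same strand.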

Additional observations from a re-analysis of the deposited data

How the results depend on the processing

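All limits are those of 3 arrays a group. Of 100 loci 10 passed, and 27 with the replicate block, 31 with quantile normalization and the replicate block, 0 (29 at an unadjusted p under 0.05) when adjusted over every probe set, and 0 to 25 when 1 array was left out (0 without siControl 1, siControl 2 or siCSRP2 2, with 30, 26 and 31 at an unadjusted p under 0.05, 3 without siCSRP2 1, 6 without siCSRP2 3 and 25 without siControl 3). No locus passed in all 6 of these fits. The loci's median difference moved from 0.18 to 0.31 with quantile normalization, with or without the replicate block, and with cyclic loess. Over all genes 1093 passed, 2348 with the replicate block, 2010 with quantile normalization and the block, 506 over every probe set and 91 to 2620 when 1 array was left out. Machinery genes passing were 2, 5 with the replicate block, 4 with quantile normalization and the block, 0 over every probe set (limma), 1 with trend and robust and 0 to 6 with 1 array out. Host genes passing were 3, 6 with the replicate block, 7 after median centring, 1 over every probe set and 0 to 8 with 1 array out. CSRP2 kept its direction and did not pass in any of the 16 settings (-0.51 to -0.005).

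Signs turned for 20 named loci or genes, with differences between -0.13 and 0.26. Under quantile normalization (with or without the block) MIR329-2 gave 0.011, MIR590 0.047, MIR4307 0.029, MIR1185-2 0.019 and DNM2 0.036. Under cyclic loess these gave 0.037, 0.059, 0.056, 0.050 and 0.023. Under median centring MIR4525 gave -0.038, MIR425 -0.065, MIR382 -0.067, VMP1 -0.042 and MIR1908 -0.048. With 1 array left out the ranges were -0.16 to 0.16 for MIR1185-2, -0.20 to 0.27 for MIR1908, -0.12 to 0.40 for MIR1914, -0.19 to 0.15 for MIR329-2, -0.065 to 0.27 for MIR3619, -0.086 to 0.35 for MIR3689B, -0.30 to 0.23 for MIR382, -0.20 to 0.089 for MIR3944, -0.19 to 0.21 for MIR425, -0.16 to 0.24 for MIR4307, -0.0019 to 0.29 for MIR4442, -0.10 to 0.67 for MIR4454, -0.17 to 0.38 for MIR4525, -0.13 to 0.24 for MIR500A, -0.21 to 0.10 for MIR590, -0.079 to 0.48 for MIR606, -0.31 to 0.18 for MIR9-1, -0.048 to 0.31 for MIRLET7E and -0.041 to 0.19 for VMP1. The cause was not tested.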

Other observations

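Outside the 100 brightest, 7 of 972 microRNA loci passed the same test, 4 higher and 3 lower. MIR4503 was the steadiest, at 3.80, 3.78 and 3.80 on siControl and 3.02, 2.95 and 3.06 on siCSRP2 arrays (difference -0.78, SE 0.10, adjusted p = 0.00666), and it passed with each array left out in turn. The others passed in 1 or 2 of these 6 fits. MIR4521 (-1.07) and MIR1238 (-0.68) were lower, and MIR1229 (0.68), MIR550A3 (0.65), MIR500B (0.61) and MIR4757 (0.50) higher. In none of these 7 did the groups overlap. The 3 probe sets of MIR4454, and the 2 each of MIR574 and MIR328, held identical values on every array, so a mean over probe sets of these genes adds no measurement.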
